A study of Saccharomyces cerevisiae with 8 samples.

Results

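A set of cyclin genes and the gene of the inhibitor Sic1, which together drive and restrain the budding yeast cell cycle, are described here across anisomycin treatment and loss of Upf1. The genes are CLN1, CLN2, CLN3, PCL1, PCL2, CLB1, CLB2, CLB5, CLB6 and SIC1. They were looked up by their systematic identifiers, and all 10 were found among 11966 features, of which 5862 are protein-coding genes. All 10 also passed the filter on low values. Total RNA without ribosomal RNA was sequenced, with strand kept, from Saccharomyces cerevisiae BY4741, a haploid laboratory strain. The groups are upf1 mutant cells with anisomycin (upf1 ANS), upf1 mutant cells with the solvent DMSO (upf1 DMSO), wild-type cells with anisomycin (WT ANS) and wild-type cells with DMSO (WT DMSO). Each group has 2 biological replicates. All 4 groups carry MATa his3Δ1 leu2Δ0 met15Δ0 ura3Δ0, and the upf1 groups add an allele written upf1*::kanMX4. NAM7 encodes Upf1, an RNA helicase without which nonsense-mediated decay stops. Anisomycin stops peptide bond formation on the ribosome, and it was given at 100 µg/ml for 30 min to cultures growing at 30 °C in rich medium. How many clones stand behind each strain is not given in the sources used here.

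Cyclins bind a cyclin-dependent kinase (CDK), switch it on and steer it to its substrates, and many are made and destroyed once in every cycle. In budding yeast the kinase Cdc28 pairs in turn with the G1 cyclins Cln1 to Cln3, the S phase cyclins Clb5 and Clb6 and the mitotic cyclins Clb1 and Clb2, while Pcl1 and Pcl2 serve the kinase Pho85. Sic1 holds the Clb kinases inactive until the Cln kinases mark it for destruction at the start of S phase. Transcription follows the same wheel. The factor SBF and its relative MBF drive late G1 genes and forkhead factors with Mcm1 drive the mitotic cluster.

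The elements by which SBF and MBF are known to act were looked for in the 800 bases upstream of each coding start, on both strands, in build R64 of the genome as annotated by RefSeq. The windows below hold the clustered matches of the cyclin genes with at least 2 of them close together. CLN1 shares the SBF element with CLN2, and PCL1 shares it with PCL2. CLB5, the paralog of CLB6, had no match to the MBF element. The windows are written on the strand of the gene. Capitals mark the SBF element CNCGAAA (SCB), read on either strand, or for CLB6 the MBF element ACGCGT (MCB).
CLN1: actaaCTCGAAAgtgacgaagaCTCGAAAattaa
CLN2: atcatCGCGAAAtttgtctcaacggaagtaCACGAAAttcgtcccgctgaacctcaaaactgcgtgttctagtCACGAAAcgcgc
PCL1: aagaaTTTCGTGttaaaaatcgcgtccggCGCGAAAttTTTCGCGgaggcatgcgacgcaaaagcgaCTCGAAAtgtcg
PCL2: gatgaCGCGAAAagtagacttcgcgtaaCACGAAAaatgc
CLB6: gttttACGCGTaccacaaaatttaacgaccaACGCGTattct
The CLN1 window is chrXIII:662187-662220 on the plus strand, 457 to 424 bases before the coding start. The CLN2 window is chrXVI:67141-67225 on the minus strand, 611 to 527 bases before it. PCL1 is shown at chrXIV:87565-87643 (plus strand, 332 to 254 bases before), PCL2 at chrIV:234529-234568 (plus strand, 398 to 359 bases before) and CLB6 at chrVII:706868-706909 (minus strand, 408 to 367 bases before).

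SCB letters were found upstream of 6 of the 10 genes, with 4 matches at PCL1, 3 each at CLN1 and CLN2, 2 at PCL2 and 1 each at CLB1 and SIC1. Of 5953 protein-coding promoters of this length, 30.0% held at least 1 match and 0.773% held 3 or more. MCB letters stood upstream of CLN1 (1 match) and CLB6 (2 matches), against 7.66% of promoters. The forkhead letters GTAAACAA stood at CLN1, CLB6 and CLB1, and in 6.55% of promoters. No 2 of these matches overlapped in the 10 genes. They are letters in a window, not bound sites.

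The genes lie on 7 chromosomes, and a pair of close neighbours joins an S phase cyclin to a mitotic one. CLB1 (YGR108W, chrVII:703636-705051) and CLB6 (YGR109C, chrVII:705359-706501) face each other tail to tail, with 307 bases between their coding ends. CLB2 (YPR119W, chrXVI:771653-773128) and CLB5 (YPR120C, chrXVI:773875-775182) do the same, 746 bases apart. The other coding sequences are CLN3 (YAL040C, chrI:65778-67520), CLN1 (YMR199W, chrXIII:662644-664284), CLN2 (YPL256C, chrXVI:64977-66614), PCL1 (YNL289W, chrXIV:87897-88736), PCL2 (YDL127W, chrIV:234927-235853) and SIC1 (YLR079W, chrXII:286820-287674). The lengths behind the deposited densities run from 178 nt (SIC1) to 797 nt (CLB2) beyond the coding sequence, so the counted features reach past it. The library kit marks strand, but whether counting used it is not given in the sources used here. Reads of the ends that face each other cannot be told apart if it did not.

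Reads recovered from the densities numbered 6954353 to 11994371 per library, and the 10 genes drew 95 (CLB6) to 2383 (PCL1) reads each. Counting error alone gives the log2 ratio of 2 replicates an SE of 0.043 to 0.194. In 9 of 40 replicate pairs the replicates differed by over 2 such errors, CLN3 in 3 groups and CLB1 in 3 groups among them. NAM7 had densities of 0.0210 and 0.0244 in upf1 ANS and 0.0113 and 0.00975 in upf1 DMSO, against 1.24 and 1.59 in WT ANS and 0.432 and 0.449 in WT DMSO. LEU2 and URA3, deleted in the strain, had 0 to 2 reads, and HIS3, only partly deleted, had 210 to 754.

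The density is a normalized number of reads per nucleotide, so levels can be set beside each other between genes. In WT DMSO cells CLN2 was the highest of the 10 with 0.342 and 0.354, and CLB6 the lowest with 0.0663 and 0.0670. The order ran CLN2, CLB1, PCL1, CLB2, CLN1, SIC1, PCL2, CLN3, CLB5 and CLB6, and of the neighbours only CLB1 and PCL1 overlapped between replicates. The upf1 DMSO cells kept CLN2 highest (0.384 and 0.371) and CLB6 lowest (0.0940 and 0.0760), but more neighbours overlapped. With anisomycin the top changed. PCL1 was highest in upf1 ANS (2.21 and 2.27) and in WT ANS (1.95 and 2.65), followed in both by CLB1 and then SIC1, whose replicates overlapped those of CLB2 in upf1 ANS and of PCL2 in WT ANS. CLB6 remained lowest, at 0.195 and 0.189 in upf1 ANS and 0.177 and 0.179 in WT ANS.

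**Figure D1:**
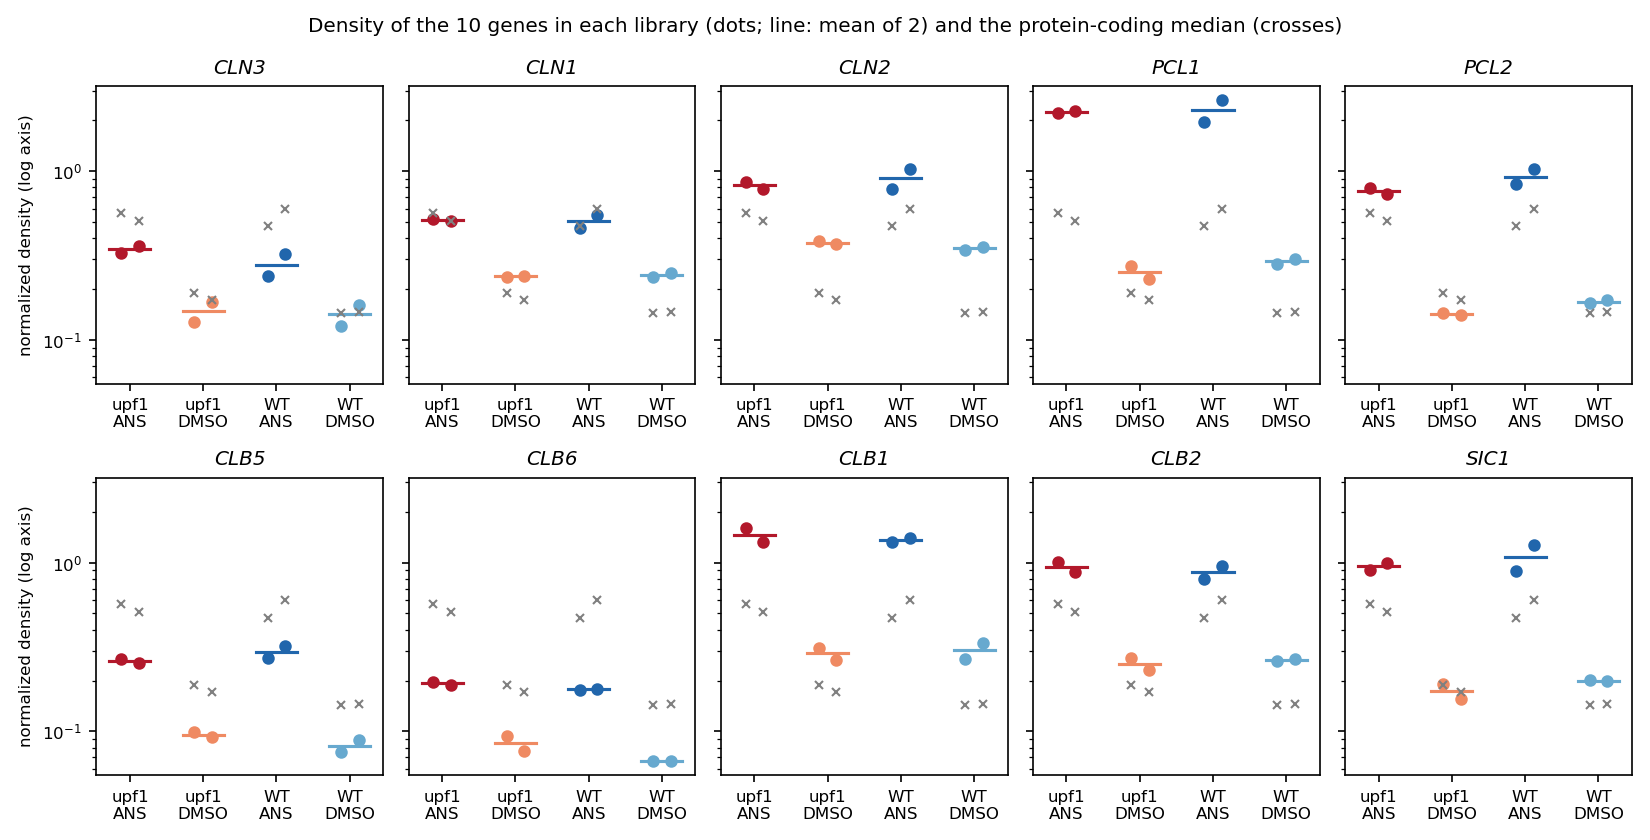
Deposited density (log axis) of each gene in the 8 libraries, 1 panel a gene; dots are libraries, lines the mean of 2, and grey crosses the median density of protein-coding genes in the same library. The crosses climb with anisomycin, and PCL1 climbs further, to between 1.95 and 2.65.

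As deposited, anisomycin raised all 10 genes in upf1 and all 10 in WT cells (limma, Benjamini-Hochberg adjusted p below 0.05). This is close to the background, since 88.7% of all features tested rose and 0.268% fell in upf1, and 90.2% rose and 0.345% fell in WT. The median log2 change of the 10 genes was 1.66 in upf1 and 1.76 in WT, beside 1.37 in upf1 and 1.77 in WT for all features, and 1.44 in upf1 and 1.73 in WT for protein-coding genes. The median protein-coding density itself was 0.565 and 0.507 in upf1 ANS against 0.188 and 0.172 in upf1 DMSO, and 0.470 and 0.596 in WT ANS against 0.144 and 0.145 in WT DMSO. The basis of the authors' scaling is not stated. Changes are therefore also given relative to protein-coding genes, after each library was divided by its median ratio over 5643 of them. In such bulk samples the share of cells in a cycle stage and the RNA per cell cannot be told apart. The p-values measure the spread between 2 biological replicates a group.

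On this rescaled scale the 10 genes split. In upf1 cells 5 rose (PCL1, PCL2, CLB1, CLB2 and SIC1) and 2 fell (CLN1 and CLN2), where 17.1% of all features rose and 18.9% fell. In WT cells 4 rose (PCL1, PCL2, CLB1 and SIC1) and 3 fell (CLN1, CLN2 and CLN3), where 35.1% of all features rose and 19.5% fell. Among protein-coding genes alone 24.1% rose and 27.3% fell in upf1, and 33.3% rose and 29.6% fell in WT. The WT counts are near the background. Rises were more frequent among the 10 genes than among all features in upf1, an excess that was not tested. The median change was 0.18 in upf1 and 0.07 in WT, beside 0.01 in upf1 and 0.27 in WT for all features. For protein-coding genes it was -0.02 in upf1 and 0.07 in WT. By role, CLN1 and CLN2 fell and PCL1, PCL2, CLB1 and SIC1 rose in both genotypes. CLN3 fell in WT only and CLB2 rose in upf1 only. The S phase cyclins passed in neither genotype. Yet CLB6 changed by -0.30 ± 0.14 in upf1 and -0.29 ± 0.14 in WT (log2 ± SE). This is close in size to CLN2, at -0.37 ± 0.06 in upf1 and -0.35 ± 0.06 in WT.

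**Figure D2:**
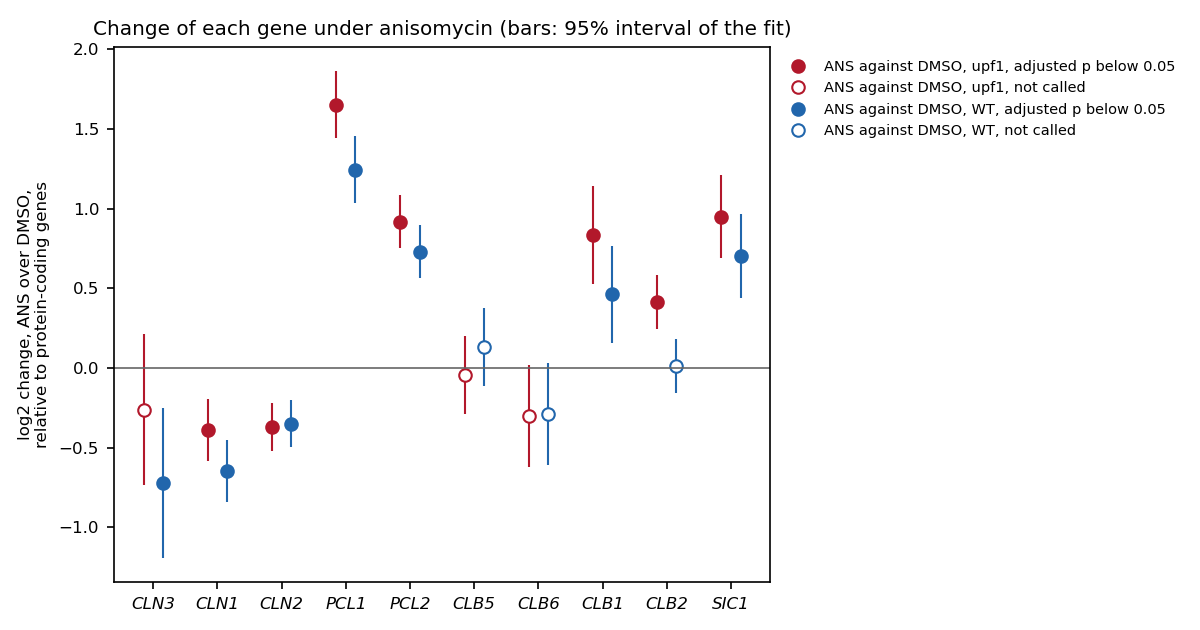
Log2 change under ANS over DMSO relative to protein-coding genes, in upf1 (red) and WT (blue) cells; bars are 95% intervals of the fit and open circles did not pass an adjusted p of 0.05. PCL1 stands highest in both genotypes (1.65 in upf1 and 1.24 in WT), and CLN1 and CLN2 lie below 0 in both.

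CLN3 encodes the G1 cyclin that acts first and starts the SBF and MBF programme through the repressor Whi5. Its density was 0.326 and 0.362 in upf1 ANS against 0.128 and 0.167 in upf1 DMSO, and 0.238 and 0.321 in WT ANS against 0.121 and 0.162 in WT DMSO. The ANS libraries lay above the DMSO libraries in each genotype, as for 98.3% of protein-coding genes in upf1 and 96.9% in WT. The rise was smaller than that of most mRNAs. The deposited density rose 2.32-fold in upf1 and 1.95-fold in WT, at the 34.2 percentile of protein-coding genes in upf1 and the 14.1 in WT. After rescaling CLN3 fell by 0.72 ± 0.20 in WT (log2 ± SE, adjusted p = 0.0188), and its change in upf1 was -0.26 ± 0.20 (adjusted p = 0.354). The call in WT was lost without WT DMSO replicate 2 (-0.52, adjusted p = 0.0930) and without either WT ANS library (adjusted p = 0.0834 and 0.0584). The difference between the genotypes was 0.46 ± 0.28 and did not pass (adjusted p = 0.349).

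CLN1 and CLN2 encode the pair of G1 cyclins that trigger budding and the destruction of Sic1, and both are classical SBF targets. CLN1 had densities of 0.521 and 0.506 in upf1 ANS against 0.237 and 0.240 in upf1 DMSO, and 0.460 and 0.552 in WT ANS against 0.235 and 0.248 in WT DMSO. CLN2 had 0.861 and 0.785 in upf1 ANS against 0.384 and 0.371 in upf1 DMSO, and 0.781 and 1.03 in WT ANS against 0.342 and 0.354 in WT DMSO. As deposited CLN1 rose 2.14-fold in upf1 and 2.07-fold in WT, and CLN2 rose 2.17-fold in upf1 and 2.56-fold in WT. All 4 rises lay below the median of protein-coding genes. On the rescaled values CLN1 fell by 0.39 ± 0.08 in upf1 (adjusted p = 0.0100) and by 0.65 ± 0.08 in WT (adjusted p = 6.18e-04). CLN2 fell by 0.37 ± 0.06 in upf1 (adjusted p = 0.0038) and by 0.35 ± 0.06 in WT (adjusted p = 0.00313). All ANS libraries of both genes then lay below the DMSO libraries of their genotype. So did those of 42.1% of protein-coding genes in upf1 and 37.6% in WT. The call of CLN1 in upf1 was lost without upf1 DMSO replicate 2 or upf1 ANS replicate 1.

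PCL1 and PCL2 encode Pho85 cyclins of late G1 that help to set up the bud, and they carry the same SCB letters as CLN1 and CLN2. PCL1 had densities of 2.21 and 2.27 in upf1 ANS against 0.275 and 0.229 in upf1 DMSO, and 1.95 and 2.65 in WT ANS against 0.281 and 0.302 in WT DMSO. The lowest ANS library held several times the density of the highest DMSO library. The deposited rise was 8.83-fold in upf1 and 7.73-fold in WT. Once rescaled, PCL1 rose by 1.65 ± 0.09 in upf1 (adjusted p = 5.00e-05) and by 1.24 ± 0.09 in WT (adjusted p = 5.55e-05), at the 98.5 percentile of protein-coding genes in upf1 and the 94.3 in WT. The difference between the genotypes was 0.41 ± 0.13 and did not pass (adjusted p = 0.0861).

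PCL2 had densities of 0.795 and 0.731 in upf1 ANS against 0.143 and 0.141 in upf1 DMSO, and 0.833 and 1.02 in WT ANS against 0.165 and 0.172 in WT DMSO. It was 5.27-fold up in upf1 and 5.39-fold up in WT as deposited. After rescaling the rise was 0.92 ± 0.07 in upf1 (adjusted p = 1.46e-04) and 0.73 ± 0.07 in WT (adjusted p = 1.80e-04). Promoters with SCB letters belonged to genes that fell (CLN1, CLN2) and genes that rose (PCL1, PCL2, CLB1, SIC1) on this scale. Such letters stood in 30.0% of promoters. Whether they bear on these changes was not tested.

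**Figure D3:**
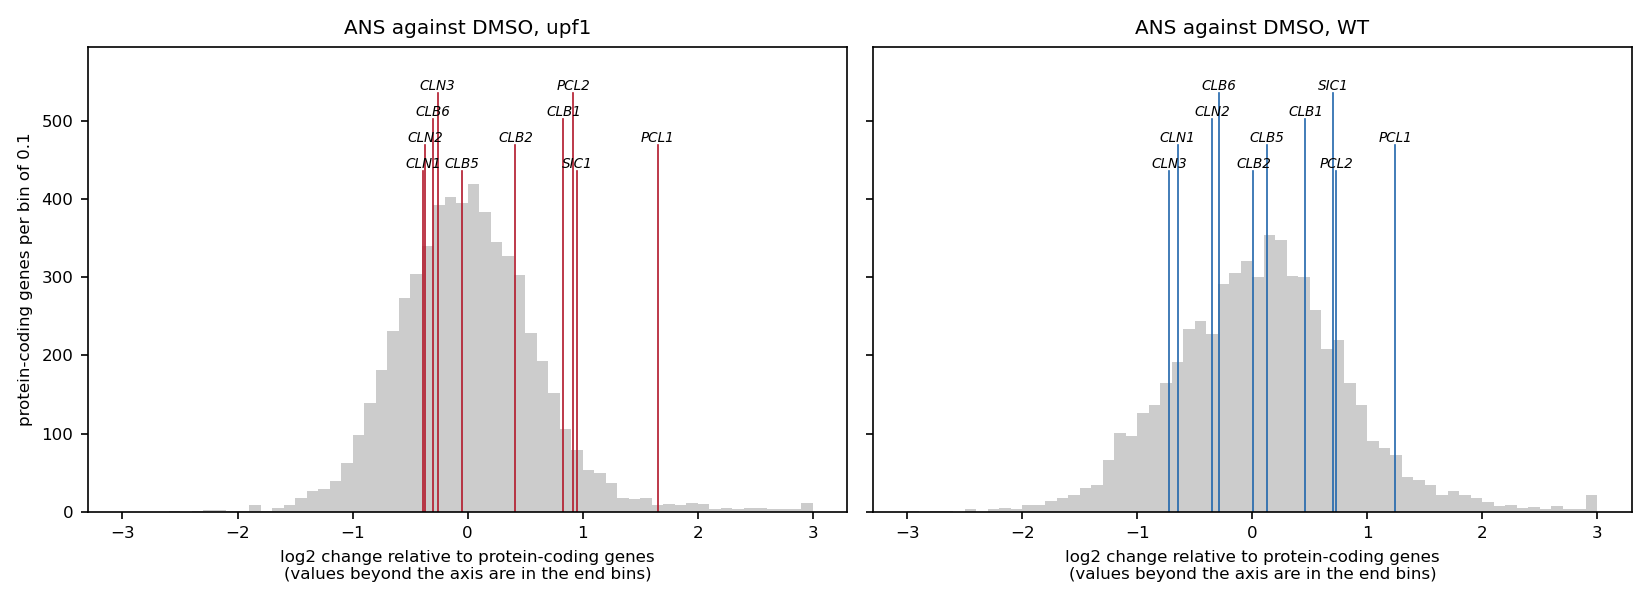
Numbers of protein-coding genes by their log2 change under ANS over DMSO relative to protein-coding genes (grey bars, bins of 0.1), in upf1 (left) and WT (right) cells, with the 10 genes as lines. PCL1 lies in the upper tail in both, and CLN1 to CLN3 lie on the lower side.

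CLB5 and CLB6 encode the cyclins that fire replication origins. CLB5 had densities of 0.268 and 0.255 in upf1 ANS against 0.0989 and 0.0924 in upf1 DMSO, and 0.272 and 0.321 in WT ANS against 0.0759 and 0.0883 in WT DMSO. CLB6 had 0.195 and 0.189 in upf1 ANS against 0.0940 and 0.0760 in upf1 DMSO, and 0.177 and 0.179 in WT ANS against 0.0663 and 0.0670 in WT DMSO. Neither passed relative to protein-coding genes. The rescaled change of CLB5 was -0.047 ± 0.10 in upf1 (95% interval -0.29 to 0.20) and 0.13 ± 0.10 in WT (-0.12 to 0.38). That of CLB6 was -0.30 ± 0.14 in upf1 (-0.62 to 0.02) and -0.29 ± 0.14 in WT (-0.61 to 0.03), and each of these intervals includes 0. CLB6 passed as lower in WT only without WT ANS replicate 1 (-0.45, adjusted p = 0.0434).

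CLB1 and CLB2 encode the mitotic cyclins, of which Clb2 is the main one. CLB1 had densities of 1.60 and 1.33 in upf1 ANS against 0.314 and 0.266 in upf1 DMSO, and 1.32 and 1.40 in WT ANS against 0.268 and 0.335 in WT DMSO. Its rescaled rise was 0.83 ± 0.13 in upf1 (adjusted p = 0.00253) and 0.46 ± 0.13 in WT (adjusted p = 0.0202). The call in WT was lost without WT DMSO replicate 1 (0.30, adjusted p = 0.106), without WT ANS replicate 1 (0.33, adjusted p = 0.115) and with only the 2 WT groups in the fit (adjusted p = 0.0616). CLB2 had densities of 1.01 and 0.882 in upf1 ANS against 0.270 and 0.231 in upf1 DMSO, and 0.799 and 0.955 in WT ANS against 0.261 and 0.267 in WT DMSO. Its rescaled change was smaller than that of CLB1 in both genotypes, at 0.41 ± 0.07 in upf1 (adjusted p = 0.00403) and 0.01 ± 0.07 in WT (adjusted p = 0.916).

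SIC1 encodes the stoichiometric inhibitor of the Clb kinases. It had densities of 0.907 and 0.990 in upf1 ANS against 0.190 and 0.156 in upf1 DMSO, and 0.892 and 1.28 in WT ANS against 0.201 and 0.198 in WT DMSO. Every ANS library stood well above every DMSO library, with a rise of the deposited density of 5.41-fold in upf1 and 5.29-fold in WT. Within a genotype the ANS libraries lay above the DMSO libraries for 98.3% of protein-coding genes in upf1 and 96.9% in WT. Rescaled, SIC1 rose by 0.95 ± 0.11 in upf1 (adjusted p = 7.02e-04) and by 0.70 ± 0.11 in WT (adjusted p = 0.00161). Its rise stood at the 94.6 percentile of protein-coding genes in upf1 and the 81.9 in WT, next to PCL2 at 93.9 in upf1 and 82.9 in WT.

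Ratios between 2 genes of 1 library do not depend on how the library was scaled, and 5 pairs were compared between the 4 ANS and the 4 DMSO libraries. The ratio of PCL1 to PCL2 was 2.34 to 3.11 in ANS and 1.63 to 1.92 in DMSO libraries, higher by 0.62 on the log2 scale. CLB1 to CLB2 was 1.46 to 1.65 in ANS and 1.03 to 1.26 in DMSO libraries, higher by 0.44. CLB5 to CLB6 was 1.35 to 1.79 in ANS and 1.05 to 1.32 in DMSO libraries, higher by 0.35. In each of these paralog pairs the ANS and DMSO libraries did not overlap. The ratio of CLB2 to its inhibitor's gene SIC1 was 0.747 to 1.11 in ANS and 1.30 to 1.48 in DMSO libraries, lower by 0.62 (-0.62). Each of these 4 differences had an exact two-sided permutation p of 0.0286, the smallest that 4 against 4 libraries can give, and 0.0357 after adjustment over the 5 pairs. The permutations shuffled all 8 libraries freely and took no account of genotype. How often the ratio of other gene pairs parts the libraries in this way was not computed. Single protein-coding genes often parted after rescaling. Their ANS libraries lay above the DMSO libraries for 38.9% and below for 42.1% in upf1. In WT the shares were 44.3% above and 37.6% below. The 4 differences are therefore not shown to be particular to these genes. CLN1 to CLN2 was 0.536 to 0.645 in ANS and 0.617 to 0.699 in DMSO libraries, overlapping, with a difference of -0.16 (exact permutation p = 0.0571, adjusted 0.0571). Within genotypes that difference was -0.02 in upf1 and -0.30 in WT, and the other 4 kept their sign in both. Tests within a genotype cannot go below 0.333.

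**Figure D4:**
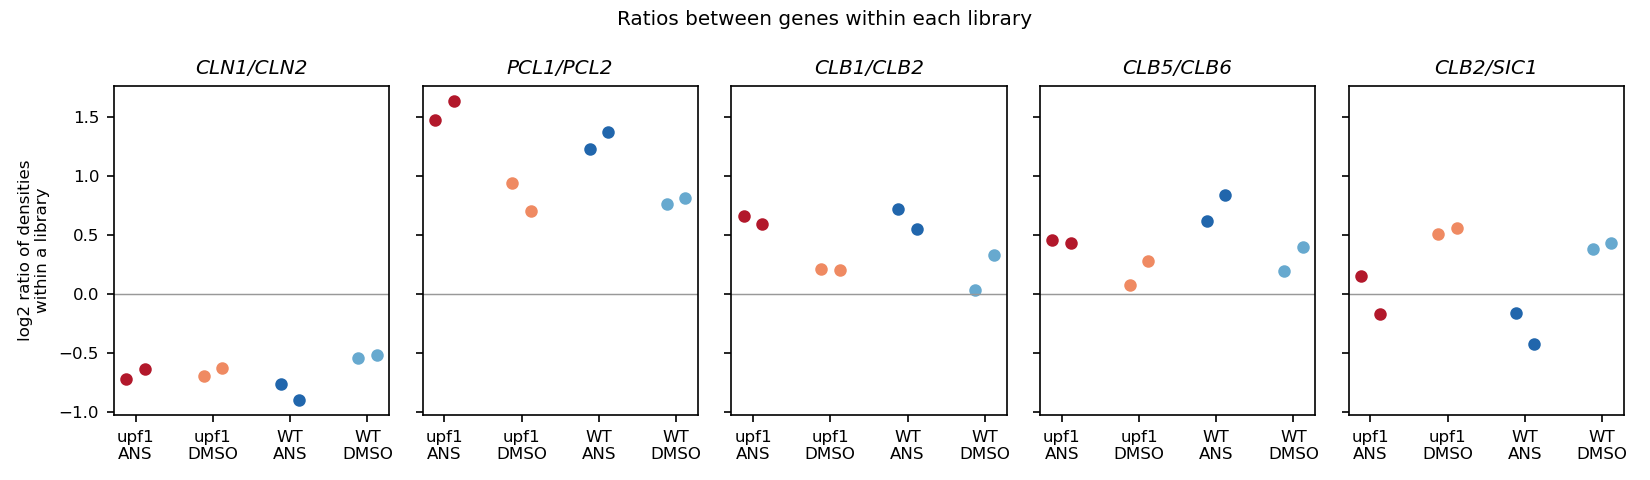
Log2 ratio of the densities of 2 genes within each library, for 5 pairs; each dot is a library. PCL1/PCL2, CLB1/CLB2 and CLB5/CLB6 are higher and CLB2/SIC1 lower in all ANS than in all DMSO libraries, while CLN1/CLN2 overlaps.

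Loss of Upf1 without the drug gave no call on the deposited scale and only falls on the rescaled one. None of the 10 passed in upf1 DMSO against WT DMSO, and none had an unadjusted p below 0.05 (limma), while 31.6% of all features rose and 0.613% fell. Their median log2 difference was -0.034, beside 0.32 for all features and 0.10 for protein-coding genes. After rescaling 5 of 10 fell and none rose, where 16.3% of all features fell and 31% rose. Of protein-coding genes 29.8% fell. The rescaled median of the 10 was -0.28, beside 0.14 for all features and -0.13 for protein-coding genes. The 5 were PCL2 (-0.49 ± 0.07, adjusted p = 0.00143), PCL1 (-0.46 ± 0.09, adjusted p = 0.00512), SIC1 (-0.45 ± 0.11, adjusted p = 0.0144), CLB2 (-0.32 ± 0.07, adjusted p = 0.00964) and CLN1 (-0.26 ± 0.08, adjusted p = 0.0365). The rescaled densities of PCL2 were 0.218 and 0.233 in upf1 DMSO against 0.313 and 0.323 in WT DMSO. Those of SIC1 were 0.290 and 0.259 in upf1 DMSO against 0.380 and 0.371 in WT DMSO. In both genes the upf1 libraries lay below the WT libraries, as they did for 48.9% of protein-coding genes. CLN3 (-0.18), CLN2 (-0.13), CLB1 (-0.30), CLB5 (-0.023) and CLB6 (0.094) did not pass. Without upf1 DMSO replicate 2 the calls of CLB2 and SIC1 were lost and 3 genes remained called. SIC1 was also lost without WT DMSO replicate 1, and CLN1 without WT DMSO replicate 1 or 2, upf1 DMSO replicate 1, or upf1 ANS replicate 1 or 2. CLN1 was lost too without a variance trend in limma (adjusted p = 0.0801) and with only the 2 DMSO groups in the fit (adjusted p = 0.0660). CLB1 passed as lower (-0.46, adjusted p = 0.0391) without WT DMSO replicate 1, and with a replicate block whose WT DMSO numbers were crossed after seeing the data (-0.30, adjusted p = 0.0166).

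Mating-type genes moved with the same contrast, and with anisomycin as well. On the rescaled scale 5 of 7 genes of a cells fell in upf1 DMSO against WT DMSO, where 16.3% of all features fell. The summed rescaled density of the 7 was 18.5 to 21.6 in upf1 DMSO and 24.9 to 27.9 in WT DMSO. With anisomycin all 7 rose in upf1 and 6 of 7 in WT, where 17.1% of all features rose in upf1 and 35.1% in WT. Their sum was then 34.1 to 39.5 in upf1 ANS and 38.9 to 45.5 in WT ANS. Of 4 genes of alpha cells 2 rose in upf1 DMSO, where 31% of all features rose. These were SAG1 by 1.89 ± 0.11 and STE3 by 1.60 ± 0.39. STE3 had only 17 and 6 reads in WT DMSO, at deposited densities of 0.00815 and 0.00208. With anisomycin 2 of the 4 rose and 0 fell in WT, where 35.1% of all features rose. They were SAG1 (0.51 ± 0.11) and STE3 (2.43 ± 0.39), the latter from the same few WT DMSO reads. In upf1 0 of the 4 rose and 1 fell with anisomycin, where 18.9% of all features fell. The alpha sum was 0.382 to 0.403 in upf1 DMSO and 0.0988 to 0.117 in WT DMSO. It was 0.293 to 0.321 in upf1 ANS and 0.207 to 0.209 in WT ANS. Most of it was SAG1. In upf1 DMSO the deposited density of SAG1 was 0.229 and 0.213, where all 4 genes summed to 0.243 to 0.251. In WT DMSO it was 0.0440 and 0.0541, where all 4 summed to 0.0522 to 0.0623. The defining pheromone genes MFALPHA1 and MFALPHA2 had 0 to 6 reads in every library. Their part in the cyclin differences was not tested.

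With anisomycin 1 gene was called between the genotypes, on the rescaled scale. None of the 10 passed in upf1 ANS against WT ANS as deposited, and none had an unadjusted p below 0.05, while 2.69% of all features rose and 0.216% fell. Once rescaled, PCL2 alone passed, lower in upf1 (-0.30 ± 0.07, adjusted p = 0.0488), where 1.89% of all features fell and 5.45% rose. An unadjusted p below 0.05 was seen for 2 of the 10. The rescaled densities of PCL2 were 0.426 and 0.431 in upf1 ANS against 0.539 and 0.520 in WT ANS. That call was lost when any 1 of the 8 libraries was left out. The difference of CLN3 was 0.28 ± 0.20 and that of CLN2 -0.15 ± 0.06, and neither passed (adjusted p = 0.425 and 0.189).

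The test of whether anisomycin acted differently in the genotypes passed for 0 of 10 genes as deposited, with 0 at an unadjusted p below 0.05, where 0.19% of features had a larger and 8.36% a smaller change in upf1. Rescaled, it passed for CLB2 alone. The change of CLB2 was 0.40 ± 0.10 larger in upf1 than in WT (adjusted p = 0.0475), where 0.725% of all features had a larger and 10.5% a smaller change. Rescaled CLB2 densities were 0.542 and 0.520 in upf1 ANS against 0.412 and 0.383 in upf1 DMSO, and 0.517 and 0.486 in WT ANS against 0.494 and 0.502 in WT DMSO. The 2 upf1 DMSO libraries were the low ones. The call was lost when any 1 of the 8 libraries was left out, with the difference then between 0.35 and 0.46.

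The wider cell-cycle machinery was counted on the rescaled scale from lists of known pathway genes, beside medians of -0.02 in upf1 and 0.07 in WT for protein-coding genes. A few genes stand in 2 lists. As background to every list, 17.1% of all features rose and 18.9% fell with anisomycin in upf1, and 35.1% rose and 19.5% fell in WT, and among protein-coding genes 24.1% rose and 27.3% fell in upf1, and 33.3% rose and 29.6% fell in WT. Whether a list differs from these shares was not tested. Targets of SBF and MBF that act in DNA replication and G1 fell more often than they rose with anisomycin. Of 21 such genes 1 rose and 10 fell in upf1 (median -0.14), and 2 rose and 11 fell in WT (median -0.30), shares of falls above those of protein-coding genes. CDC21, which makes thymidylate, changed by -0.88 in upf1 and -1.06 in WT, POL30, the sliding clamp, by -0.33 in upf1 and -0.61 in WT, and RFA1, of the single-strand binding complex, by -0.30 in upf1 and -0.59 in WT. Of the CLB2 cluster of G2 and M phase more genes rose: of 14 genes 11 rose and 1 fell in upf1 (median 0.47), and 8 rose and 1 fell in WT (median 0.35). DBF2, a kinase of mitotic exit, changed by 1.31 in upf1 and 1.14 in WT, and CDC20, an activator of the anaphase-promoting complex, by 0.89 in upf1 and 0.77 in WT. BUD3, a bud-site gene, was the one that fell (-0.53 in upf1 and -0.70 in WT). Of 6 transcription factors of G2 and M phase 3 rose and 1 fell in each genotype. The forkhead gene FKH1 fell by 0.60 in upf1 and by 0.80 in WT. Among those that rose in WT were YHP1 (0.56) and HCM1 (0.38).

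Regulators that surround the cyclins moved in both directions. Among 13 other cyclins and CDK subunits 7 rose and 1 fell in upf1, and 8 rose and 2 fell in WT. CKS1, a subunit of the Cdc28 kinase, changed by -0.59 in upf1 and -0.95 in WT, and PHO80, the Pho85 cyclin of phosphate control, by 0.34 in upf1 and 0.78 in WT. Among 12 regulators of G1 start 6 rose and 1 fell in upf1, and 3 rose and 1 fell in WT, where the share that rose lay below the background. The one that fell was NRM1, the corepressor of MBF, by 0.95 in upf1 and by 1.77 in WT, while MBP1, the DNA-binding subunit of MBF, rose by 0.60 in upf1 and 0.49 in WT.

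Among 10 CDK inhibitors and modifying enzymes 3 rose and 2 fell in upf1, and 2 rose and 2 fell in WT, shares near or below those of protein-coding genes. FAR1, an inhibitor of the Cln kinases in pheromone arrest, rose by 1.02 in upf1 and 0.98 in WT. SWE1, the kinase that holds back Clb2, fell by 0.68 in upf1 and by 0.49 in WT. Among 16 genes of the ubiquitin ligases that destroy cyclins and Sic1, 9 rose and 2 fell in upf1, and 10 rose and 1 fell in WT. DMA2, a ligase of mitotic checkpoints, changed by 1.18 in upf1 and 1.39 in WT.

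**Figure D5:**
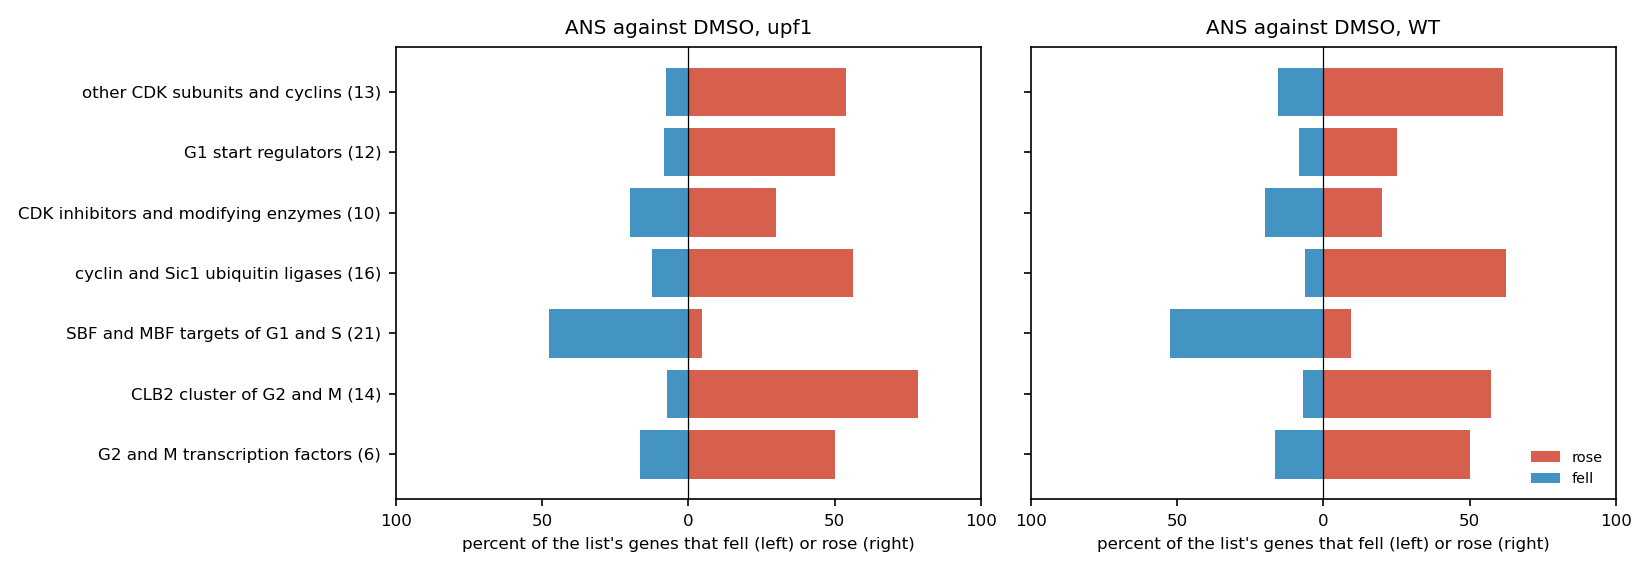
Percent of each list's genes that rose (red, right) or fell (blue, left) under ANS over DMSO relative to protein-coding genes, in upf1 (left panel) and WT (right panel) cells; the number of genes tested is in brackets. Of the targets of SBF and MBF 10 of 21 fell in upf1 and 11 of 21 in WT, and of the CLB2 cluster 11 of 14 rose in upf1 and 8 of 14 in WT.

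The same lists in upf1 DMSO against WT DMSO held more falls than rises, where 16.3% of all features fell and 31% rose, and 29.8% of protein-coding genes fell and 22% rose. Of the SBF and MBF targets 1 rose and 11 of 21 fell (median -0.27, beside -0.13 for protein-coding genes), and of the CLB2 cluster none rose and 6 of 14 fell. Of the 13 other cyclins and CDK subunits 3 rose and 5 fell. PHO80 rose by 0.89, PCL10 by 0.73 and PCL5 by 0.53, all Pho85 cyclins, while CLB4, a cyclin of S and M phase, fell by 0.45. Of the 16 ubiquitin ligase genes 1 rose and 5 fell. The one that rose was HRT1, the RING subunit of the ligase that destroys Sic1, by 1.27, and CDC16, a subunit of the anaphase-promoting complex, fell by 0.48. HRT1 had densities of 0.921 and 0.845 in upf1 DMSO against 0.292 and 0.323 in WT DMSO.

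The genes whose rescaled pattern over the 8 libraries lay nearest to each of the 10 were sought among 2882 protein-coding genes of at least median density. Likeness was the root mean square difference of centred log2 values. CLN1 lay nearest to APT1 and POL30 (0.0437 and 0.0441) and CLN2 to SCT1 and KRE2 (0.0440 and 0.0446). PCL1 had AGP2 (0.0807) and CMK2 (0.115) nearest, PCL2 had MRPS5 (0.0873) and TPN1 (0.0904), and SIC1 had HAP1 (0.0729) and TPN1 (0.0777). TPN1 was thus among the nearest to both PCL2 and SIC1. For the S phase cyclins these were TIM21 and YET1 (CLB5, 0.0587 and 0.0659) and LSM2 and SSP120 (CLB6, 0.0646 and 0.0716). For the mitotic cyclins they were ERG5 and NUT1 (CLB1, 0.0763 and 0.0840) and SWS2 and CUB1 (CLB2, 0.0523 and 0.0573). CLN3 lay nearest to SDH4 (0.0825) and ATP15 (0.117). Among the 10 themselves PCL2 and SIC1 (0.112) and CLN1 and CLN2 (0.115) were the closest pairs, and PCL1 stood farthest from any other, with SIC1 nearest at 0.318.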

How the data were processed

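The deposited table gives 1 normalized density (signal) for each of 11966 features in each of 8 libraries, and 4 columns that equal the authors' mean of the 2 replicates to 1e-06. Per the submitters' processing notes Trim Galore, then HISAT2 2.2.0, featureCounts 2.0.0 and also DESeq2 are named, with build R64. What each did to the deposited signal, its scaling basis and the treatment of reads in overlapping features are not given in the sources used here. The spike-in RNA of the labels' protocol was not used here. A search for 1 length per feature turned 100% of the features above 0 back into whole reads (tolerance 1e-05 reads), but 0 of 500 features with randomly moved values. These reads give depth and counting error only, and that only if they are independent molecules.

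Values were fitted in R 4.3.3 with limma 3.58.1 as log2(density + 0.00340). This pseudocount, percentile 5 of the values above 0, understates the changes of low genes. Features averaging less than it were left out (387), leaving 11579 tested, of them 5778 protein-coding. All 8 libraries entered, with 1 mean per group and a variance trend, and each of 5 comparisons was adjusted by Benjamini-Hochberg over all features at 0.05. The same model was run on densities divided by each library's median ratio over 5643 protein-coding genes. The script was tested on simulated data. Pair ratios carry no pseudocount and went through exact permutation tests that took no account of genotype (scipy 1.17.1). Promoters come from RefSeq's R64 genome.

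The members and the lists of pathway genes were chosen with earlier results of these data known. All 10 genes are always named. From each list up to 3 genes with the smallest adjusted p were eligible for naming in the WT anisomycin comparison and in the DMSO comparison of genotypes, on the rescaled values. Alternatives were other pseudocounts, filters, feature sets, sample sets and scalings, no variance trend, a replicate block and leaving out each library. MET15 was not analysed here. One gene and the list and motif that go with it are not reported here.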

Additional observations from a re-analysis of the deposited data

Results flagged for a closer look

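The change of CLB2 under anisomycin differed between the genotypes relative to protein-coding genes, by 0.40 on the log2 scale (0.41 in upf1 and 0.01 in WT; limma interaction, adjusted p = 0.0475). All 10 genes were looked at in this way on 2 scales, and on the deposited scale the difference was 0.19 and did not pass (adjusted p = 0.763). Groups of 2 libraries were too small to test single libraries for standing apart.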

How the results depend on the processing

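Scaling decided most calls. As deposited, 10 genes rose with ANS in upf1 and 10 in WT; rescaled on protein-coding genes 5 and 4 rose and 2 and 3 fell, and rescaled on all tested features 5 and 3 rose and 2 and 4 fell. In upf1 against WT in DMSO 0 fell as deposited, 5 and 8 on these 2 scales; under ANS 0 fell, then 1 and 2; the difference between genotypes was larger for 0, then 1 and 2 genes. Directions turned from a deposited rise in upf1 to -0.26 and -0.28 (CLN3), -0.39 and -0.41 (CLN1), -0.37 and -0.39 (CLN2), -0.047 and -0.065 (CLB5) and -0.30 and -0.32 (CLB6). In WT they turned to -0.72 and -0.88 (CLN3), -0.65 and -0.81 (CLN1), -0.35 and -0.51 (CLN2) and -0.29 and -0.45 (CLB6), and on all features to -0.030 (CLB5) and -0.15 (CLB2). In upf1 against WT in DMSO CLN2 turned to -0.42 and CLB5 to -0.31 on all features. Rescaling divides all genes of a library by the same number, so they move together. Which scale follows the RNA per cell was not tested.

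On the rescaled values, the fall of PCL2 in upf1 ANS against WT ANS (1 gene) became 0 without a variance trend, with only the 2 groups and with the replicate block; the CLB2 difference (1 gene) became 0 without a variance trend. Leaving out 1 library gave 5 rises and 1 to 2 falls in upf1, 3 to 4 rises and 2 to 3 falls in WT, 3 to 5 falls in upf1 against WT in DMSO, and 0 and 0 for the last 2. As deposited it gave 10 rises in each genotype and 0 elsewhere. Pair ratios then ranged over 0.55 to 0.69 (PCL1/PCL2), 0.38 to 0.48 (CLB1/CLB2), 0.26 to 0.40 (CLB5/CLB6), -0.72 to -0.53 (CLB2/SIC1) and -0.20 to -0.11 (CLN1/CLN2). With 4 against 3 libraries the exact permutation test cannot go below p = 0.0571. The other settings (pseudocounts, filters, protein-coding features only) left every count within 1.5 times.

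Replicate numbers are shared by the groups, but not every correlation of replicate differences was above 0.1: they were 0.125 to 0.253 among upf1 ANS, upf1 DMSO and WT ANS, and -0.176 to 0.00727 between these and WT DMSO. The numbers were therefore not taken to pair the samples, which these correlations leave unsettled. With the replicate block the count of PCL2 above became 0 and the other counts stayed within 1.5 times. Crossed numbers for WT DMSO, chosen after seeing the data, also gave 0 there, and called CLB1 lower in upf1 against WT in DMSO (-0.30, adjusted p = 0.0166).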
